A study of Mus musculus with 16 samples.

Results

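The genes of the extracellular matrix and its receptors were examined in whole colon tissue of mice with and without experimental colitis. Members were chosen by name alone, with a case-sensitive pattern over the gene names of the 4 deposited tables that covers collagens, laminins, integrins, fibulins, fibronectin, Sparc genes, tenascin C, lysyl oxidases, thrombospondins, elastin, Timps, nidogens, fibrillins, perlecan, periostin, decorin, lumican and versican. The pattern found 58 of 5171 distinct genes, all protein coding: 18 collagen chains, 5 laminin chains with nidogen 1, elastin with 4 lysyl oxidases, 9 glycoproteins and proteoglycans, 2 Timps and 17 integrin subunits. The remaining match, Itgb1bp1, encodes a cytoplasmic protein that binds the tail of an integrin and is neither matrix nor integrin, so it was kept apart. Postn, Fbn1, Fbn2 and Hspg2, which the pattern also covers, were in none of the 4 tables, so no values are at hand for them.

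The study compared wild type (WT) mice with mice in which loxP-flanked exons of Smarcad1, a gene for a SWI/SNF-like chromatin remodeller, were removed by Cre recombinase under the villin promoter (KO). Villin is active in the gut epithelium, so stromal cells, which make most of the matrix, and blood cells keep an intact Smarcad1 in these mice. All animals were C57BL/6 males, matched for age, and from 2 weeks before the treatment all received an enriched microbiota through bedding of C57BL/6 donors from another facility. Colitis was induced with 1% dextran sulphate sodium (DSS) in the drinking water for 15 days, DSS being a polymer that damages the colon lining, and untreated mice served as control. RNA of the central part of the colon, opened and washed, was sequenced in 3 control and 5 colitis libraries of each genotype.

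Extracellular matrix is the protein scaffold around and beneath cells. Fibrillar collagens, secreted mainly by fibroblasts, give it tensile strength after lysyl oxidases have cross-linked them, while collagen IV, laminins and nidogen form the basement membrane on which the epithelium, vessels and muscle rest. Integrins are pairs of an alpha and a beta subunit that attach cells to matrix or, on leukocytes, to adhesion molecules of other cells. In colitis the matrix is degraded and rebuilt while leukocytes enter the tissue.

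The tables gave 1 value per gene and group, the authors' mean over the libraries of log2 RPM, the reads of a gene scaled to a fixed library total, and no value of a single library. No spread between mice, SD or test of this report therefore stands behind any difference below, and whether the mice of 2 groups overlapped could not be seen. A table held the genes that had passed the authors' adjusted threshold of 0.05 in 1 comparison. "Rose" and "fell" are used below for genes that are in the table of that comparison, and for all others values alone are given. The geometric mean depth recovered from the lowest values was 10.1 M reads per library in WT control, 8.0 M in WT colitis, 9.77 M in KO control and 9.87 M in KO colitis, and 3 reads per library, taken as the floor of detection, corresponded to between -1.75 and -1.42 log2 RPM. One member, Itgad, had group means under it. Smarcad1 itself was at 5.77 log2 RPM in WT control, 5.68 in WT colitis, 4.59 in KO control and 4.55 in KO colitis, which matches the labelled genotypes. In whole tissue, fewer cells of a type and less RNA per cell cannot be told apart.

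In WT colon, colitis came with more transcript of interstitial collagens, elastin, lysyl oxidases, fibronectin, versican and the protease inhibitor Timp1, and with less of collagen VIII, collagen IX, laminin gamma 3 chain and Timp4. Of the 58 members, 46 were in the WT colitis table, where 36 rose and 10 fell. That table held 63.1% of all 5171 genes, 36.6% as higher and 26.4% as lower. In KO colon 32 members were in the colitis table, where 20 rose and 12 fell, and this table held 78.4% of all genes, 44.8% as higher and 33.6% as lower. Since a gene had to be in at least 1 table to be a member, nothing is read from these shares. The tables shared 21 members, 25 were in the WT table alone and 11 in the KO table alone, and Col6a3 was in neither. Of all 5171 genes, 2182 were shared, 1079 were in the WT table alone and 1874 in the KO table alone. The median change of the 58 members was 0.61 on the log2 scale in WT and 0.17 in KO, and the medians over all 5171 genes were 0.13 and 0.19. Changes of 2-fold or more were upward for 14 members and downward for 8 in WT, beside 18.4% and 13% of all genes. In KO 7 members were higher and 7 lower by this margin, beside 16% and 12.6% of all genes.

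**Figure D1:**
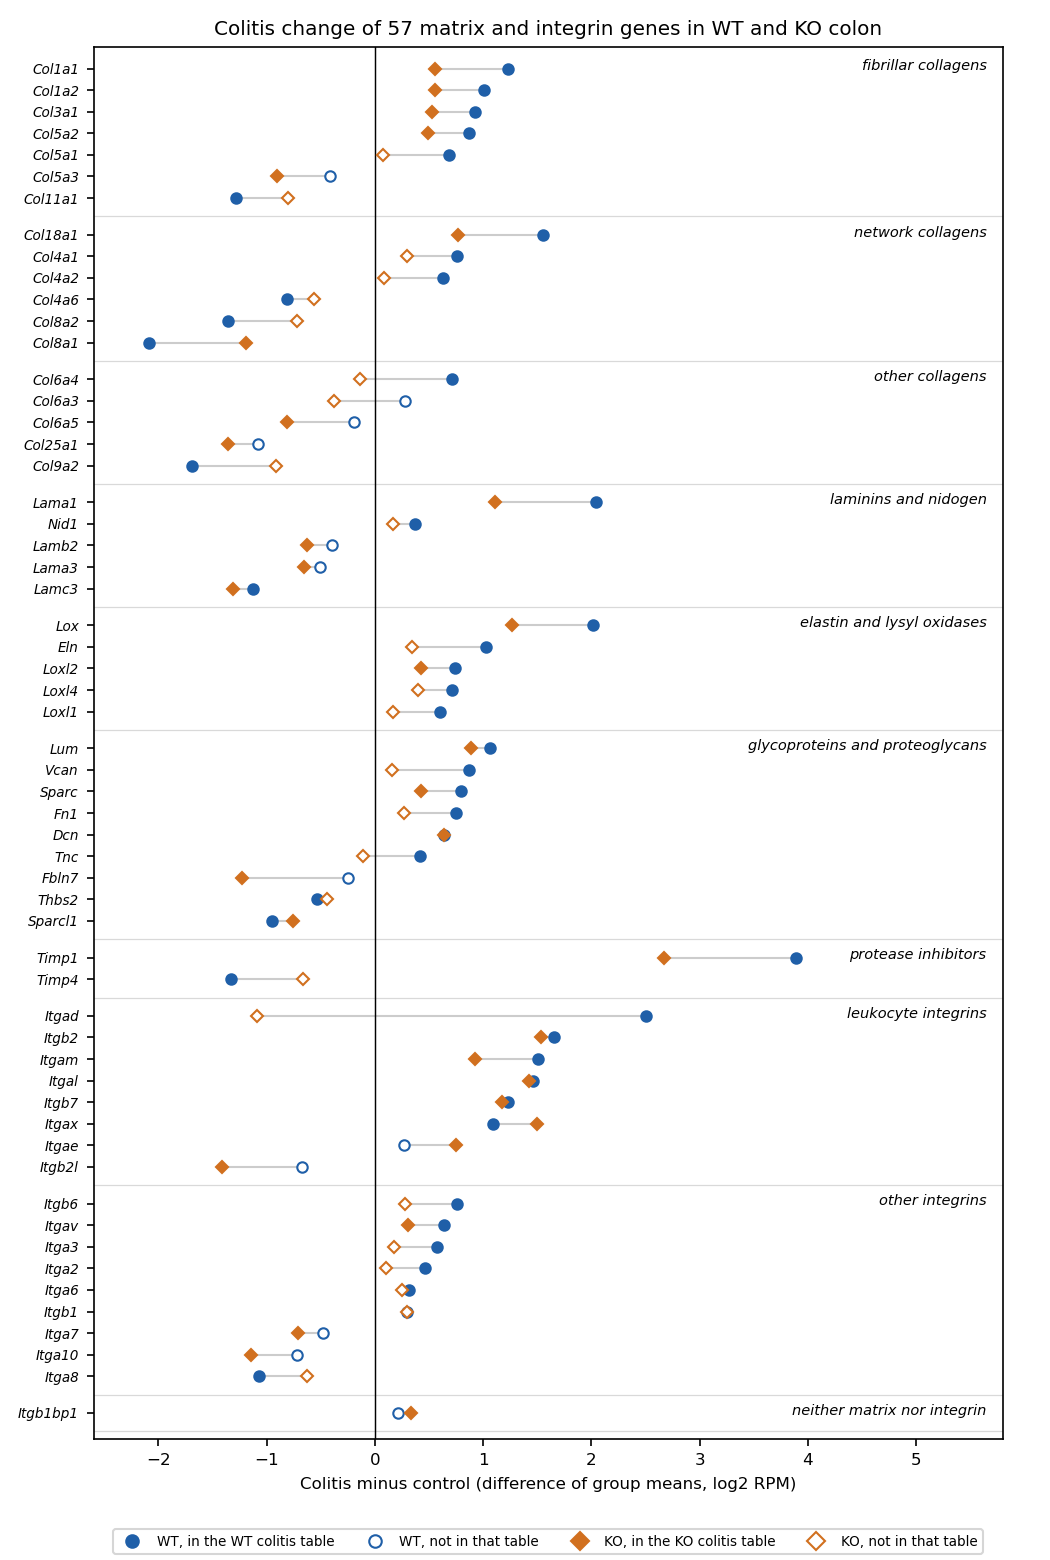
Change of 57 of the genes in colitis, as the difference between the group means of colitis and control in log2 RPM, with circles for WT and diamonds for KO, filled where the gene is in the table of that comparison. Most filled circles right of 0 have their KO diamond to the left of them, with Timp1 farthest right at 3.89 in WT and 2.67 in KO.

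Promoter sequences of 5 members are shown because these genes span the responses described below: a strong rise (Timp1), an interstitial collagen that rose in both genotypes (Col3a1), a lower level in KO than in WT colitis (Col6a3), a fall (Col8a1) and a leukocyte integrin (Itgax). Each line holds the 250 bases upstream of the RefSeq start site in build GRCm38.p6, read 5′ to 3′ on the strand of the gene. Capitals mark 5 short motifs found on either strand: the TATA box (TATAAA), the CCAAT box (CCAAT), the GC box (GGGCGG), the AP-1 site (TGANTCA) and the core bound by PU.1 (GAGGAA). None of the marked matches overlap. The Timp1 window lies in an intron of Syn1, which is read from the other strand, and the last 3 bases of the Itgax window lie in the first exon that the tables and GENCODE give, while the remaining windows adjoin the annotated starts.
Timp1 (chrX:20869916-20870165, plus strand): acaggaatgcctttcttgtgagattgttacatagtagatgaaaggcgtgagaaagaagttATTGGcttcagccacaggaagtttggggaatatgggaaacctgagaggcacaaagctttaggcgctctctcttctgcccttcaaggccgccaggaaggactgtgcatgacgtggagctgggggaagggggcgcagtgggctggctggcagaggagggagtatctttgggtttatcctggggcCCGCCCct
Col3a1 (chr1:45311288-45311537, plus strand): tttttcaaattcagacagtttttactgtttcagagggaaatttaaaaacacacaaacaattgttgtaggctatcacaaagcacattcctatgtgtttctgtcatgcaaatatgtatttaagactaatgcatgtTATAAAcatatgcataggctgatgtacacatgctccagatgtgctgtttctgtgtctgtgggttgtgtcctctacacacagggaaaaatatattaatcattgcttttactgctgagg
Col6a3 (chr1:90843972-90844221, minus strand): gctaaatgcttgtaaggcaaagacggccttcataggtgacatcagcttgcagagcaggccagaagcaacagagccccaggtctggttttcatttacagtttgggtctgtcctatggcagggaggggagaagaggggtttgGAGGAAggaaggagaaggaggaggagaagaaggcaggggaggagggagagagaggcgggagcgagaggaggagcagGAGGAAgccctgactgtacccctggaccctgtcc
Col8a1 (chr16:57754738-57754987, minus strand): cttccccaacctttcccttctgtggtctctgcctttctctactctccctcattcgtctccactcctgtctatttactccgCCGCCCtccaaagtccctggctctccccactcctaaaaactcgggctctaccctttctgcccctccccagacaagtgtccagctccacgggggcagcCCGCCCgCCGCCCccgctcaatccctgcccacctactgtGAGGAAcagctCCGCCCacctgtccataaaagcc
Itgax (chr7:128129300-128129549, plus strand): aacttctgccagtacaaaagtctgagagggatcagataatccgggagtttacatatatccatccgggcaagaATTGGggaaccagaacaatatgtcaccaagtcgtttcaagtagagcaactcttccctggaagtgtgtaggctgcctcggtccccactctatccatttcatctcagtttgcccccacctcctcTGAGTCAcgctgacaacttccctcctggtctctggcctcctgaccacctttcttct

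The Timp1 window held a CCAAT box at -190 and a GC box at -8 from the start site. The Col3a1 window had a TATA box at -117 and none of the other motifs, that of Col6a3 held 2 PU.1 cores, and that of Col8a1 had 4 GC boxes and a PU.1 core. The Itgax window held an AP-1 site at -56. A RefSeq promoter was matched to 38 of the 58 members, of which 26 were matrix genes and 4 leukocyte integrins. A GC box was in 18 of the 26 matrix promoters (69.2%), in 35.4% of all 27025 genes with a promoter and in 54.6% of the 3703 genes of the tables with one, where a gene with several promoters counted once if any held the motif. The CCAAT box was in 13 of 26 (50.0%), against 37.5% of all genes and 39.0% of the table genes. The letters of the AP-1 site were in none of the 26 matrix windows, against 7.82% of all genes and 8.07% of the table genes. The PU.1 core was in 7 of 26 (26.9%), against 25.9% and 29.3%, and the TATA box was in 3 of 26 (11.5%), against 14.3% and 11.0%. The motifs were chosen after the expression values had been seen, and a match of letters describes the sequence and no binding.

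Fibrillar collagens form the rope-like fibres of the interstitium. Their transcripts rose in WT colitis in 5 of 7 genes, and 4 of these also rose in KO colitis, each by less. Col1a1 (ENSMUSG00000001506, chr11:94936224-94953042, plus strand), a chain of collagen I, was at 8.50 in WT control, 9.73 in WT colitis, 8.55 in KO control and 9.11 in KO colitis, all in log2 RPM. It rose 2.35-fold in WT and 1.47-fold in KO. The control levels of the genotypes lay within 0.05 of each other, so nearly the whole gap arose in the colitis groups. Col1a2, which encodes the partner chain, was at 8.83 in WT control, 9.83 in WT colitis, 8.85 in KO control and 9.40 in KO colitis, a rise of 1.01 and 0.55 on the log2 scale. Col3a1 (chr1:45311538-45349706, plus strand), the chain of collagen III, was at 10.25 in WT control, 11.18 in WT colitis, 10.20 in KO control and 10.72 in KO colitis and rose by 0.93 and 0.53. Collagen V, which sets the width of collagen I fibres, split by chain: Col5a2 rose by 0.87 in WT and 0.49 in KO, whereas Col5a1 rose by 0.68 in WT and had a difference of 0.079 in KO, where it was not in the table. The collagen V chain Col5a3 was at 5.60 in WT control, 5.19 in WT colitis, 5.53 in KO control and 4.62 in KO colitis, and it fell in KO by 0.90 with a WT difference of -0.42 that was not in the table. Col11a1, a minor fibrillar chain, was at 1.63, 0.34, 0.90 and 0.097 in the same order of groups and fell in WT by 1.29. In KO its difference was -0.81, from a control level that was already 0.73 lower than in WT.

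The network collagens went in both directions. Col4a1 and Col4a2, the chains of the common basement membrane collagen IV, are read in opposite directions from start sites 21 bp apart on chromosome 8. Col4a1 was at 8.69 in WT control, 9.45 in WT colitis, 8.60 in KO control and 8.90 in KO colitis and rose in WT by 0.75, with 0.29 in KO. Col4a2 rose in WT by 0.62 from 8.07, and its KO difference was 0.087. The pair was thus higher in WT colitis than in the other groups, and neither gene was in the KO table. Col4a6, a chain of a less common collagen IV network, fell in WT by 0.81, with -0.56 in KO. Col18a1, a basement membrane collagen whose end is released as endostatin, was at 6.72 in WT control, 8.27 in WT colitis, 6.71 in KO control and 7.47 in KO colitis and rose 2.93-fold in WT and 1.70-fold in KO. Collagen VIII, a short-chain collagen of vessel walls and smooth muscle, moved the other way. Col8a1 (chr16:57624258-57754737, minus strand) was at 7.59 in WT control, 5.50 in WT colitis, 7.55 in KO control and 6.37 in KO colitis, so it fell to 0.235 of the control level in WT and to 0.439 in KO. Its partner chain Col8a2 was at 3.67, 2.31, 3.42 and 2.70 in the same order and fell in WT by 1.36, with a KO difference of -0.72.

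The remaining collagens were the only class in which no member rose in KO. Collagen VI forms beaded filaments near cell surfaces. Col6a3 (ENSMUSG00000048126, chr1:90765923-90843971, minus strand) was at 7.46 in WT control, 7.74 in WT colitis, 7.45 in KO control and 7.07 in KO colitis, slightly above the control level in WT colitis and below it in KO colitis. It was in neither colitis table and was 1 of 2 members in the table of KO against WT in colitis. Col6a4 rose in WT by 0.71, with -0.13 in KO, and its group means were 4.12, 4.83, 4.50 and 4.37 in the same order. Col6a5 fell in KO by 0.81, from 4.45 to 3.64, and the WT difference was -0.19. Col9a2, a chain of the fibril-associated collagen IX, was at 2.78 in WT control, 1.09 in WT colitis, 2.38 in KO control and 1.47 in KO colitis and fell in WT by 1.69, with -0.91 in KO. Col25a1, a transmembrane collagen, was at 1.98, 0.90, 1.87 and 0.51 and fell in KO by 1.36, with -1.08 in WT.

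Among the laminin chains, Lama1 rose in both genotypes, while Lama3, Lamb2 and Lamc3 fell in at least 1. Lama1, an alpha chain typical of embryonic basement membranes, was at 2.24 in WT control, 4.28 in WT colitis, 2.21 in KO control and 3.32 in KO colitis, and it rose 4.12-fold in WT and 2.15-fold in KO. Its control levels were low and within 0.05 of each other. Lama3, a chain of the laminin that anchors epithelial cells to the basement membrane, was at 7.51 in WT control, 7.0 in WT colitis, 7.01 in KO control and 6.36 in KO colitis and fell in KO by 0.65, with -0.51 in WT. Lama3 was also among the members with the largest control difference between genotypes, -0.50, although no member was in the control table. Lamb2, a beta chain of vessel and muscle basement membranes, was at 6.48, 6.09, 6.43 and 5.81 in the same order and fell in KO by 0.63. Lamc3 fell in both, by 1.13 in WT and 1.31 in KO. Nid1, which links laminin to collagen IV, rose in WT by 0.37, with 0.16 in KO.

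Elastin and the lysyl oxidases moved in 1 direction: all 5 rose in WT colitis, with a class median of 0.74, and 2 of them, Lox and Loxl2, also rose in KO, where the class median was 0.40. Lox, the enzyme that starts the cross-linking of collagen and elastin, was at 3.68 in WT control, 5.70 in WT colitis, 3.43 in KO control and 4.70 in KO colitis. It rose 4.04-fold in WT and 2.41-fold in KO. Eln, the elastic fibre protein, was at 6.49 in WT control, 7.52 in WT colitis, 6.39 in KO control and 6.73 in KO colitis and rose 2.04-fold in WT, with a KO difference of 0.34 that was not in the table. Loxl2 (ENSMUSG00000034205, chr14:69609068-69695834, plus strand), which acts on collagen IV in basement membranes, was at 5.82 in WT control, 6.57 in WT colitis, 5.50 in KO control and 5.93 in KO colitis and rose by 0.74 and 0.42. An antisense transcript, Gm27177, covers 5.57% of its exon bases, and without a stated strand setting their reads cannot be told apart. Loxl1, which acts on elastin, rose in WT by 0.60, with 0.17 in KO, and Loxl4 rose by 0.71, with 0.40 in KO.

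Of the 9 glycoproteins and proteoglycans, 6 rose and 2 fell in WT, while 3 rose and 2 fell in KO. Fn1 encodes fibronectin, an early scaffold of wounds, and was at 8.92 in WT control, 9.67 in WT colitis, 8.93 in KO control and 9.20 in KO colitis. It rose in WT by 0.75, with 0.27 in KO. Tnc, a tenascin of tissue repair, rose in WT by 0.42 but had a KO difference of -0.11, and its level was 7.67 in KO colitis against 8.34 in WT colitis. Vcan, a large proteoglycan of provisional matrix, was at 5.37 in WT control, 6.24 in WT colitis, 5.45 in KO control and 5.61 in KO colitis and rose in WT by 0.87, with 0.16 in KO. Of the small proteoglycans that bind collagen fibres, Lum rose by 1.07 and 0.89, and Dcn rose by 0.64 in both, the closest match among the matrix genes that rose. Their relatives outside the name pattern moved both ways, as Bgn rose by 0.84 and 0.60, while Fmod, Ogn and Aspn fell in WT by 1.23, 0.85 and 0.63, with -0.85, -0.29 and 0.035 in KO. Sparc, a collagen-binding protein of stromal cells, was at 8.93, 9.73, 8.82 and 9.25 in the same order and rose by 0.80 and 0.43. Its relative Sparcl1 fell in both, by 0.95 and 0.76, from 9.34 and 9.19. Thbs2, an inhibitor of vessel growth, fell in WT by 0.54, with -0.44 in KO. Fbln7, a fibulin, was at 2.53 in WT control, 2.28 in WT colitis, 2.74 in KO control and 1.5 in KO colitis and fell in KO by 1.23, with -0.25 in WT.

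The 2 tissue inhibitors of metalloproteinases moved apart. Timp1 (ENSMUSG00000001131, chrX:20870166-20874735, plus strand), induced in many inflamed tissues, was at 1.36 in WT control, 5.24 in WT colitis, 1.32 in KO control and 3.99 in KO colitis. The rise of 14.8-fold in WT and 6.37-fold in KO was the largest of all members, from control levels that differed by -0.041. Timp4 was at 2.94 in WT control, 1.61 in WT colitis, 2.92 in KO control and 2.25 in KO colitis and fell in WT by 1.33, with -0.67 in KO.

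Members that fell include several that smooth muscle makes, and the listed markers of that cell type also fell. Of 10 smooth muscle markers, 4 were in the tables, Myh11, Acta2, Mylk and Smtn, and the remaining ones were in none. Since a listed gene had passed a threshold in at least 1 comparison, no decline of the cell type is read from these 4. All 4 fell in WT and 3 fell in KO, with median changes of -0.64 and -0.56, and their summed level went from 12.2 to 11.6 log2 RPM in WT and from 12.1 to 11.6 in KO. Their part in the lower levels of Col8a1 and Sparcl1 was not tested.

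**Figure D2:**
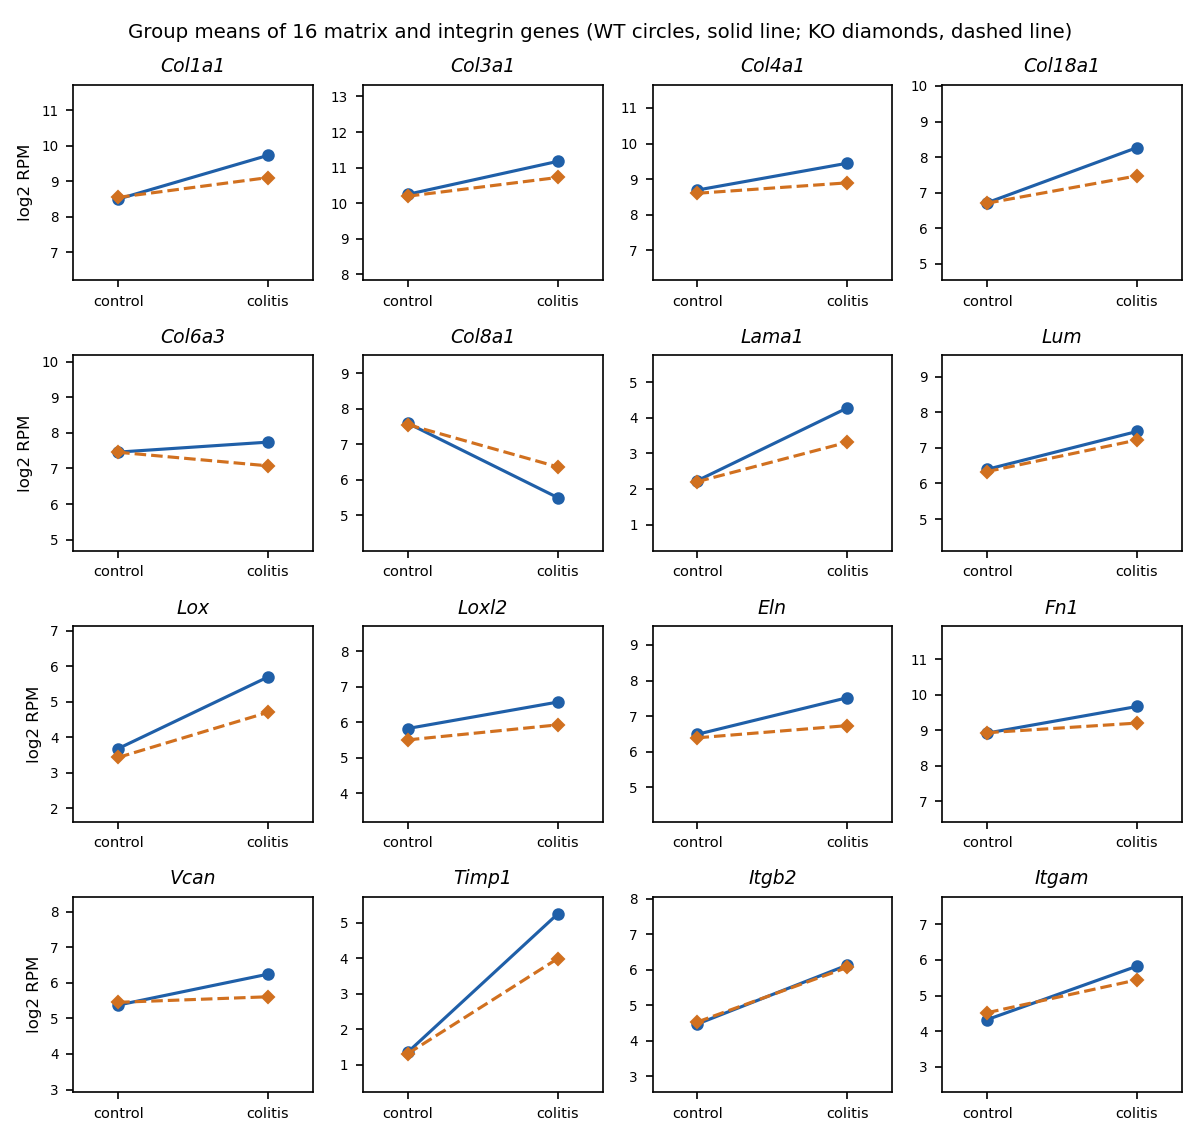
Group means of 16 genes in log2 RPM, control at left and colitis at right, WT as circles with a solid line and KO as diamonds with a dashed line. Each panel spans the same height on the log2 scale. The genotypes start close together and part in colitis for Col1a1, Col18a1, Lama1 and Timp1, while the lines of Itgb2 stay together.

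Leukocyte integrins had class medians of 1.35 in WT and 1.05 in KO, near those of the 2 protease inhibitors, 1.28 and 1.00, and 6 of the 8 rose in each. With Itgad raised to the floor or left out, the WT median was 1.24 or 1.23, under that of the protease inhibitors. Itgb2, the beta chain shared by the integrins of neutrophils, macrophages and T cells, was at 4.47 in WT control, 6.13 in WT colitis, 4.53 in KO control and 6.07 in KO colitis, so it rose 3.15-fold in WT and 2.90-fold in KO. Itgal, its alpha partner on lymphocytes, rose by 1.46 and 1.43, and Itgb7, a chain that guides lymphocytes to the gut, rose by 1.23 and 1.18. For these 3 genes the genotypes lay within 0.22 of each other in control and in colitis alike. Itgam, the alpha partner on neutrophils and macrophages, was at 4.32 in WT control, 5.83 in WT colitis, 4.52 in KO control and 5.44 in KO colitis and rose by 1.5 in WT and 0.92 in KO. Gm49368, annotated on the same strand, shares 68.7% of the exon bases of Itgam, so how its reads were assigned bears on this value. Itgax, the alpha partner on dendritic cells and macrophages, was at 3.99 in WT control, 5.09 in WT colitis, 3.73 in KO control and 5.23 in KO colitis and rose by 1.09 in WT and 1.5 in KO. Itgae, which binds E-cadherin and keeps T cells in the epithelium, was at 3.02 in WT control, 3.29 in WT colitis, 3.09 in KO control and 3.84 in KO colitis and rose in KO by 0.75, with 0.27 in WT. Itgax was thus the only leukocyte integrin that rose in both genotypes with the larger rise in KO. Itgae entered through the KO colitis table alone, so its larger KO change is not read as a finding. Itgb2l, a beta chain related to Itgb2, was at 1.49, 0.82, 1.5 and 0.091 in the same order and fell in KO by 1.41, with -0.67 in WT.

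Itgad, the neighbour of Itgax on chromosome 7, was close to the floor throughout. It was at -3.01 in WT control, -0.50 in WT colitis, -1.09 in KO control and -2.19 in KO colitis, under 3 reads per library in WT control and KO colitis. With these groups set at the floor, WT colitis was at least 2.39-fold higher than WT control and KO colitis was at least 2.33-fold lower than WT colitis. Itgad, Itgam and Itgax are similar in sequence, as are Itgb2 and Itgb2l, and reads that fit more than 1 of them may have been lost in the unique mapping.

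The listed markers of blood cells were higher in colitis than in control, as were most leukocyte integrins. All 10 myeloid markers rose in both genotypes, with medians of 2.19 in WT and 1.75 in KO, and their summed level went from 9.21 to 10.6 log2 RPM in WT and from 9.28 to 10.5 in KO. S100a8 and Cxcr2, neutrophil markers, were under the floor in both control groups. In colitis, the KO minus WT difference of the 4 neutrophil markers was -2.66 for S100a8, -2.77 for S100a9, -0.90 for Csf3r and -1.67 for Cxcr2, none of them in the table of that comparison. The same difference of the 6 monocyte and macrophage markers ran from -0.35 for Fcgr1 to 0.13 for Adgre1, with -0.083 for Cd14, -0.079 for Csf1r, -0.021 for Lyz2 and -0.0040 for Cd68. Of 10 lymphocyte markers 7 were in the tables, of which 5 rose in WT and 7 in KO, with medians of 1.55 and 2.49. Cd79b and Cd2 were there through the KO colitis table alone, with 0.23 and 0.47 in WT and 0.93 for each in KO. The larger KO median of the lymphocyte markers is therefore not read as a finding. The part of blood cells in the integrin values was not tested.

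The other integrins had smaller class medians than those of leukocytes, 0.31 in WT and 0.18 in KO. Of 9, 6 rose and 1 fell in WT, while 1 rose and 2 fell in KO. Itgb1, the beta chain shared by most matrix receptors, was at 9.76 in WT control, 10.06 in WT colitis, 9.65 in KO control and 9.94 in KO colitis and rose in WT by 0.30, with 0.29 in KO. Its laminin-binding partners Itga3 and Itga6 rose in WT by 0.57 and 0.31, with 0.18 and 0.25 in KO. The collagen receptor Itga2 rose in WT by 0.46, with 0.10 in KO. Itgb6 pairs with Itgav on epithelial cells, where the pair activates TGF-beta. Itgb6 was at 5.71 in WT control, 6.46 in WT colitis, 5.47 in KO control and 5.75 in KO colitis and rose in WT by 0.76, with 0.28 in KO, and Itgav rose by 0.64 and 0.31. Itga8, carried by smooth muscle and other mesenchymal cells, was at 4.25, 3.18, 4.15 and 3.52 in the same order and fell in WT by 1.07. The muscle laminin receptor Itga7 and the collagen receptor Itga10 fell in KO, by 0.71 and 1.14, with -0.48 and -0.72 in WT. Gm42957 on the same strand shares 33.5% of the exon bases of Itga10. Itgb1bp1, the member outside both groups, rose in KO by 0.34, with 0.22 in WT.

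Levels of different genes were compared only after division by exon length, as RPM per kb. In WT control the 5 highest members were Sparcl1 at 220 RPM per kb, Itgb1 at 212, Sparc at 129, Col3a1 at 124 and Dcn at 74.9. In WT colitis Itgb1 (261), Col3a1 (236) and Sparc (224) came first and Sparcl1 had moved to place 6, with 114. Neighbours in this order cannot be separated without a spread between mice. Timp1 moved from place 38 of 58 in WT control, at 2.89 RPM per kb, to place 15 in WT colitis, at 42.7, and from place 38 to place 21 in KO. Col8a1 went the opposite way, from place 15 in both control groups to place 38 in WT colitis and place 28 in KO colitis. Partner chains were also set against each other per kb. The ratio of Col1a1 to Col1a2, which assemble in a fixed proportion, was 1.51 in WT control, 1.76 in WT colitis, 1.53 in KO control and 1.54 in KO colitis. That of Col4a1 to Col4a2 was 1.36, 1.49, 1.29 and 1.49 in the same order. The ratio of Itgam to Itgb2 was 0.547, 0.492, 0.602 and 0.394 and that of Itgae to Itgb7 was 0.389, 0.20, 0.352 and 0.262, lower in colitis than in control in both genotypes, whereas that of Itga6 to Itgb1 lay between 0.201 and 0.216 in all 4 groups.

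In control colon, none of the 58 members was in the table of KO against WT in control, which held 0.89% of all genes, 0.522% as higher and 0.367% as lower. The median difference of KO from WT was -0.046 over the members and 0.0046 over all genes. The largest differences were those of Itgad (1.91, from under the floor in WT), Col11a1 (-0.73), Lama3 (-0.50), Col9a2 (-0.40), Col6a4 (0.38) and Loxl2 (-0.32). Itgad alone differed by 2-fold or more, upward, beside 1.08% of all genes higher and 0.735% lower by that margin. Outside the name pattern, 1 gene of the list of other matrix glycoproteins and proteoglycans was in the control table, Aspn, which was lower in KO by 0.48.

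In colitis most matrix genes had lower means in KO than in WT. The table of KO against WT in colitis held 2 members, beside 1.08% of all genes, 0.696% as higher and 0.387% as lower, and both were lower in KO: Col6a3 by 0.67 and Loxl2 by 0.64, or 0.630 and 0.641 of the WT level. For all other members the difference is a value that did not pass the authors' threshold. The means of 46 of 58 members were lower in KO, 32 of 40 matrix genes and 13 of 17 integrins among them, beside 52.6% of all genes. In control colon these counts were 40, 31 and 8, beside 49.0% of all genes. For the matrix genes the direction was thus much the same in control, and the size of the difference was not. Their median difference was -0.053 in control and -0.46 in colitis. In colitis the median was -0.40 over the members, -0.12 over the integrins and -0.014 over all genes. Differences of 0.4 or more downward were found for 29 members, 25 of them matrix genes, beside 13.4% of all genes. Upward, 3 members reached that size, Col8a1 (0.86), Timp4 (0.65) and Itgae (0.55), beside 7.91% of all genes. Lower levels by 2-fold or more were seen for Itgad and Timp1, beside 2.9% of all genes, and no member was higher by that margin, beside 1.49%. After Itgad, the members with the largest distance were Timp1 (-1.26), Lox (-0.99), Lama1 (-0.96), Col8a1 and Col18a1 (-0.79). By class, the median difference in colitis was -0.64 for elastin and lysyl oxidases, -0.47 for glycoproteins and proteoglycans, -0.45 for fibrillar collagens, -0.43 for other collagens, -0.39 for laminins and nidogen, -0.28 for other integrins, -0.18 for network collagens and -0.056 for leukocyte integrins. Of the 40 matrix genes, 18 were in the WT colitis table alone and 6 in the KO colitis table alone. How a gene entered bears on the counts and medians above, and the class order is not read as a finding. Over the 15 matrix genes in both colitis tables the median was -0.45, beside -0.033 over all genes in both.

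**Figure D3:**
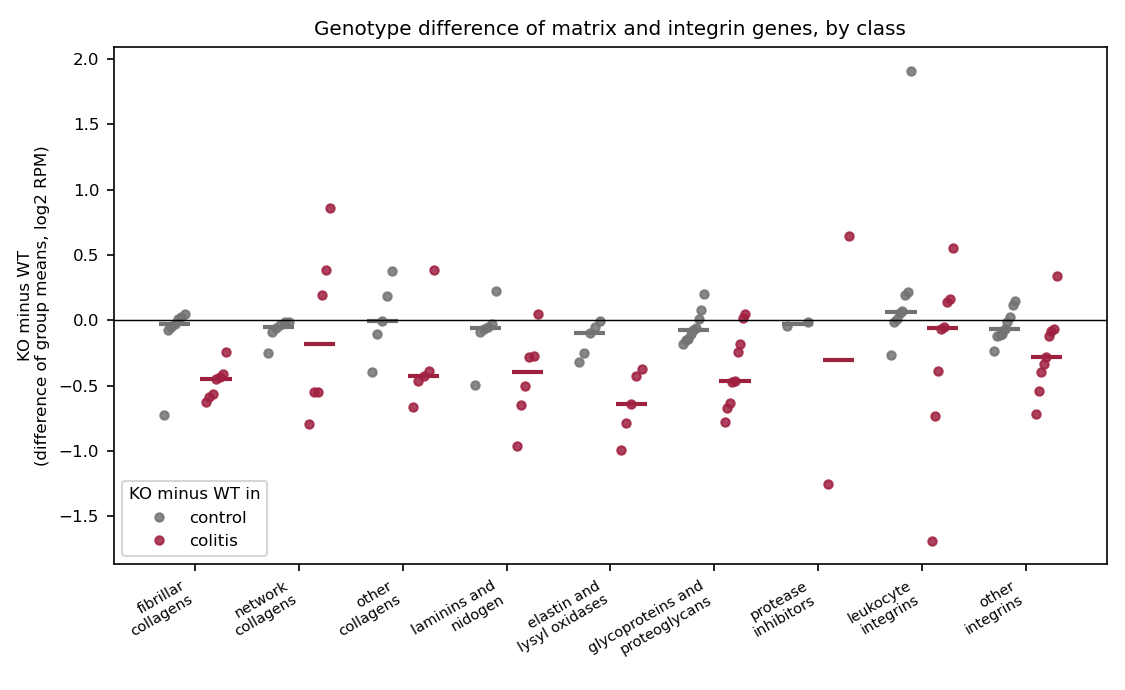
Difference between KO and WT group means in log2 RPM for each gene by class, in control (grey) and colitis (red), with a bar at each class median. The grey points lie between -0.73 and 0.38 apart from Itgad at 1.91. The red points of the fibrillar collagens and of elastin and the lysyl oxidases all lie below 0. So do the grey points of elastin and the lysyl oxidases, the network collagens and the protease inhibitors.

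**Figure D4:**
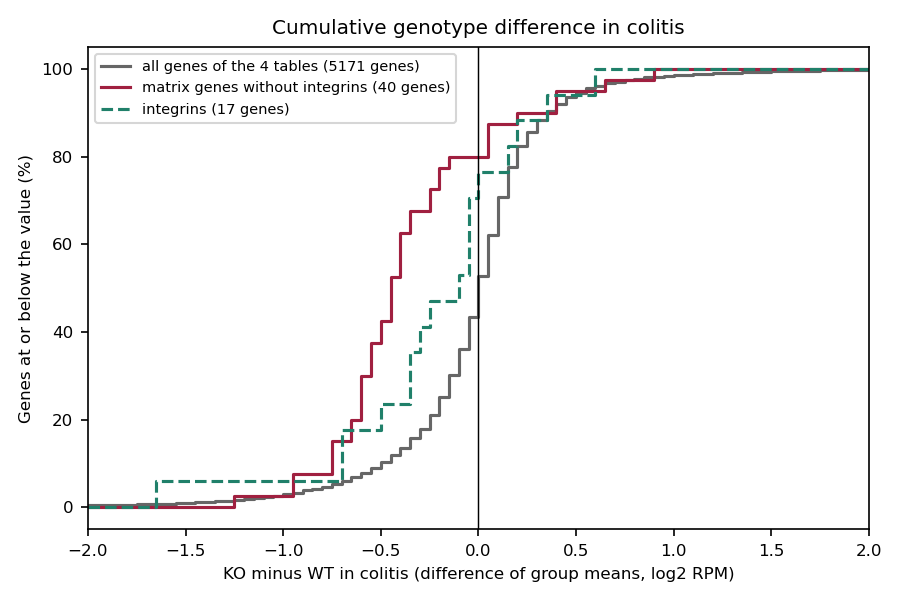
Cumulative share of genes at or below each KO minus WT difference in colitis, for the 40 matrix genes, the 17 integrins and all 5171 genes of the tables. The curve of the matrix genes runs left of that of all genes, with 62.5% of matrix genes and 13.4% of all genes at or below -0.4.

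The matrix genes had a median KO minus WT difference of -0.053 in control. Lower KO means in colitis and smaller KO increases are therefore largely 1 observation for them. Among the 40 matrix genes, 22 were higher in colitis than in control in both genotypes, and the increase was smaller in KO for all 22. Over all genes, 1455 of the 2735 with an increase in both genotypes (53.2%) had the smaller one in KO. Of the 6 leukocyte integrins with increases in both, 4 had the smaller one in KO. These counts depend on how a gene entered the tables, since a gene listed for 1 genotype had to be far from control there. All 24 matrix genes that rose in WT had the lower mean in KO colitis, beside 69.9% of all genes that rose in WT. The 12 matrix genes that rose in KO are all among these 24, so their lower means are not a second observation. Over all genes that rose in KO, 47.5% had the lower mean in KO colitis. Of the 10 members that fell in WT, 1 had the lower mean in KO colitis, beside 34.4% of all such genes, and of the 12 that fell in KO 9 had it, beside 61.0%, so no common direction is read from the decreases. The direction differed between genotypes for 4 members, Col6a3, Col6a4, Tnc and Itgad, which were higher than control in WT colitis and lower in KO colitis, and no member did the reverse. Among all 5171 genes, 58 differed in this way and 71 in the reverse way. The KO differences of Col6a4 (-0.13) and Tnc (-0.11) were small and not in the KO table, and Col6a3 was in neither colitis table. The KO change minus the WT change was farthest from 0 for Itgad (-3.60, with means under the floor), Timp1 (-1.21), Fbln7 (-0.98), Lama1 (-0.94), Col8a1 (0.90) and Col6a4 (-0.85). None of these differences between the genotypes could be set against the variation among mice.

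Of 11 fibroblast markers, 2 were in the tables, both through the WT colitis table alone, so a smaller KO change of these 2 is not read as a finding. Pdgfrb was at 5.79 in WT control, 6.33 in WT colitis, 5.82 in KO control and 5.76 in KO colitis and rose in WT by 0.54, with -0.055 in KO, and Thy1 rose in WT by 0.65, with 0.27 in KO. Their summed level was 6.55 log2 RPM in WT control, 7.13 in WT colitis, 6.54 in KO control and 6.62 in KO colitis. The remaining 9 fibroblast markers were in none of the tables, so no values are at hand for them. The part of fibroblasts in the matrix values was not tested. Of 10 endothelial markers 2 were in the tables, Tek and Egfl7, with KO minus WT differences of -0.38 and -0.28 in colitis, and none of 10 epithelial markers was.

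Other genes of the matrix pathway were taken from 3 lists. Of all genes, 36.6% were in the WT colitis table as higher and 26.4% as lower, and for KO these shares were 44.8% and 33.6%. Some list genes, such as Efemp2, Emilin1 and Bmp1, entered through the WT colitis table alone. Others, such as Agrn and Tnxb, entered through the KO colitis table alone. Differences between WT and KO in the counts or medians of these lists are therefore not read as a finding. Of 25 genes that process collagen, 8 were in the tables, of which 7 rose and 1 fell in WT and 4 rose and 1 fell in KO, with medians of 0.48 and 0.20. Serpinh1, the collagen chaperone, was at 7.68 in WT control, 8.19 in WT colitis, 7.55 in KO control and 7.47 in KO colitis, so it rose in WT by 0.51 and was 0.72 lower in KO than in WT colitis, where it was in the table. Tgm2, a cross-linking transglutaminase, rose by 1.49 and 0.69, and Ctsk, a collagen-degrading protease, rose by 1.73 and 1.11. Bmp1, which trims procollagen, rose in WT by 0.44, with -0.053 in KO. Of 35 other matrix glycoproteins and proteoglycans, 20 were in the tables, of which 13 rose and 5 fell in WT and 7 rose and 3 fell in KO, with medians of 0.84 and 0.43. Among them Wisp2 rose by 3.70 and 2.80, and Spon2 rose in WT by 0.56, had -0.68 in KO and was in the table as lower in KO colitis, by 1.07. Of 29 integrin partners and matrix receptors, 12 were in the tables, of which 7 rose and 3 fell in WT and 8 rose and 2 fell in KO, with medians of 0.67 and 0.60. Vcam1 and Icam1, ligands of leukocyte integrins on vessel walls, rose by 1.77 and 1.5 in WT and by 1.56 and 1.14 in KO. Madcam1, the ligand of the gut-homing integrin with the Itgb7 chain, rose by 1.45 and 1.92, from control levels of 2.93 and 1.92.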

How the data were processed

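RNA was measured in whole tissue from the central part of the colon of 16 mice, grouped by sample title. The authors mapped reads to GRCm38 with HISAT2 2.1.0, kept unique hits, removed ribosomal RNA reads found in some samples, counted reads over exons with SeqMonk and tested raw counts with DESeq2. The labels give single-end reads and the methods paired-end reads. The series text names the small intestine, while the sample labels name the colon, which is followed here. Each of the 4 deposited tables holds the genes past the authors' threshold in 1 comparison, with 4 log2 values per gene. These log2 values are, as the authors deposited them, the group means of log2 RPM, not scaled by gene length, and the same gene had identical means in every table. The tables also hold the authors' adjusted p-values of their comparisons, which were neither used nor printed.

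From these means, differences, medians and counts were computed with pandas 2.3.3 in Python 3.11.15. No test was run, because group means hold no spread between mice. Depth was recovered from the lowest means, of which 100% lay on steps of whole reads to within 0.0005 log2, against at most 2.5% of random values, on the assumption that 0 reads had been set to 0.9 read. The recovery was tested on simulated data. Exon lengths and overlaps are from GENCODE M21, in which 52 members had the coordinates of the tables, and promoters are from RefSeq. Group means were printed for the members with the largest changes or genotype differences, up to 5 by class and 6 by comparison, and for those in a table of KO against WT. Every member could be named, and the means of Fn1, Itgb1, Itgae and Itgb2l were added after values were seen. The members, lists and comparisons were chosen with earlier results of these data known, and the classes and motifs after the values had been seen. Alternatives were other fold thresholds, 1 RPM added, a minimum of 1 RPM, means raised to the floor and means in place of medians. One member, counted in the totals, is not reported here by name.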

Additional observations from a re-analysis of the deposited data

How the results depend on the processing

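Of 129 alternative values for 31 results, 102 stayed within 0.2 on the log2 scale or within 1.5 times for counts and 27 moved further. Of these values, 4 lay on the other side of 0 from the value reported. The KO median of all members, 0.17, became -0.017 when the median of all genes was subtracted, and means in place of medians turned laminins and nidogen in WT from -0.010 to 0.17, glycoproteins in KO from 0.16 to -0.018 and other integrins in KO from 0.18 to -0.12. 4 of the 129 alternatives were chosen after seeing the data. At 1.5-fold in place of 2-fold, the members higher and lower in colitis numbered 30 up in WT, 12 up and 18 down in KO, and those that differed between genotypes were 2 in control and 18 in colitis. At 3-fold, 5 were up and 2 down in WT, 1 up and 0 down in KO, and 1 differed between genotypes in colitis. With 1 RPM added to each mean, 4 were down in WT and 2 in KO, with 0 genotype differences in control and 1 in colitis. The control count was also 0 with means raised to the floor or a minimum of 1 RPM, and that minimum left 1 in colitis, since Itgad dropped out. No share of all genes is given at these other settings, so the counts show only how far they depend on the setting. Means in place of medians gave 0.37 for all members in WT, 0.43 for fibrillar collagens, -0.39 for other collagens, 1.02 for elastin and lysyl oxidases, 0.31 for glycoproteins, 1.13 for leukocyte integrins and 0.085 for other integrins. In KO they gave 0.070 for fibrillar collagens and 0.60 for leukocyte integrins, which put this class under the protease inhibitors (1.28 and 1.00) in both genotypes. No paired analysis was possible because the tables hold group means and no value of a single library, and for the same reason no library was left out in turn. No statement here covers the spread between mice, and 1 member was under the depth floor.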
